A study of Mus musculus with 11 samples.

Results

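A set of 40 genes that are normally active in germ cells, most of them parts of the piRNA pathway or of the meiotic chromosome machinery, was followed by RNA-seq in mouse embryonic stem cells whose CTCF protein can be removed with auxin. The members were taken from a fixed list of 40 gene symbols, which was drawn up with earlier results of these data known. All 40 were found among the 55228 symbols of the deposited tables, and 39 of them were among the 16420 genes with enough counts to be tested.

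All 11 libraries came from 1 cell line, EN52.9.1, in which the endogenous CTCF carries an auxin-inducible degron (CTCF-AID), grown in serum with leukemia inhibitory factor. Cells labelled EV that received no auxin form the EV untreated group (3 libraries). EV auxin cells (2 libraries) received 500 µM indole-3-acetic acid, which depletes the endogenous CTCF. FL auxin cells (3 libraries) had FL CTCF reintroduced, and H373R auxin cells (3 libraries), titled ZF4, had CTCF with the H373R substitution reintroduced, both under the same auxin. The untreated cells thus carry the degron too, and EV and FL are taken only as the labels write them. The length of the auxin treatment is not given in the sources used here. Of the EV auxin libraries, number 3 was not analysed here. The labels do not say whether replicates were separate cultures, so p-values measure the spread between these libraries, which may be technical.

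In the fetal testis, PIWI proteins load small piRNAs and direct the silencing of transposons, helped by Tudor-domain scaffold proteins, RNA helicases and mitochondrial membrane factors. In meiosis, homologous chromosomes are organised on an axis of meiotic cohesin, joined by the synaptonemal complex, and exchange DNA at programmed breaks repaired with DMC1. In embryonic stem cells many promoters of these genes are held down by a variant Polycomb complex, PRC1.6, whose MGA-MAX and E2F6-DP1 subunits bind E-box and E2F sequences, and by DNA methylation. CTCF binds DNA through its zinc fingers and stops the loop extrusion of cohesin, and the series title names it as a G-quadruplex binding protein. A G-quadruplex is a stacked structure that DNA with runs of G can fold into.

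The libraries held 13465241 to 29902246 counts, and log2 CPM (counts scaled to the library total) correlated at r = 0.992 to 0.996 between libraries of one group and at 0.981 to 0.993 between groups. EV untreated replicate 1 stood apart from its group. Its deviation from the group mean correlated with gene GC content across 16242 genes at r = 0.559, against -0.376 to 0.325 in the other libraries. The members have a lower median GC content of exons (45.4%) than the tested genes (50.2%). The calls that were gained or lost without this library are therefore also given. Ctcf RNA itself was not called different in any of the 6 comparisons, with group means of 321 to 361 CPM and a smallest adjusted p of 0.0683 by edgeR (unadjusted 0.0169, H373R against EV auxin). The deposited RNA counts do not measure the protein that auxin removes. The 8 embryonic stem cell markers (Pou5f1 highest) summed to 5081 to 5718 CPM in every library. The 8 spermatid markers summed to 0.114 to 0.433 CPM with Prm1 and Acrv1 at 0 in all libraries. Markers of feeder fibroblasts summed to 62.5 to 70.7 CPM in EV untreated, 59.0 to 64.0 in EV auxin, 90.4 to 104 in FL auxin and 77.8 to 86.8 in H373R auxin cells (Col1a1 highest, 3 of the 8 with at most 3 counts per library). The sums of 3 other lists reached their highest value in an EV auxin library. Oocyte markers, with Oosp1 at 0 and Zp3 highest, summed to 6.84 to 8.05 CPM there and 4.52 to 7.0 elsewhere. Markers of the 2-cell-like state, with Tcstv1 and Gm6763 at 0 and Zscan4d highest, summed to 5.56 to 6.27 CPM in EV auxin libraries and 3.82 to 5.48 elsewhere. Sertoli and Leydig cell markers, nearly all of it Dmrt1, which germ cells also express, summed to 118 to 125 CPM and 95.7 to 110.1 CPM. In bulk RNA, fewer cells that express a gene and less RNA per cell cannot be told apart, and the part of other cell types in the results was not tested.

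By level, the members spanned from absent to abundant. Mean TPM, which is scaled per gene length and allows genes to be compared with each other, was at least 100 for 7 members: Tex19.1 (216), Sycp3 (192), Mael (171), Syce1 (154), Stra8 (151), Hsf2bp (120) and Ddx4 (104). A further 20 members lay between 10 and 100 TPM and 9 between 1 and 10 TPM, and 4 were under 1 TPM: Asz1, Sycp2, Tdrd6 and Spo11. Spo11, which encodes the enzyme that makes meiotic DNA breaks, had 0 to 2 counts per library and was the member left out of the tests. Dividing CPM by a gene length worked out from the deposited counts and TPM gave the same rank order. That length already contains the TPM, so this is not a separate check. The summed level of all members was 1697 to 1862 TPM in EV untreated, 2093 to 2122 in EV auxin, 1681 to 1775 in FL auxin and 1956 to 2000 in H373R auxin libraries. The EV auxin libraries were thus the highest, the H373R auxin libraries came next, and the EV untreated and FL auxin libraries overlapped. Abundant members weigh most in such a sum. Mael, for example, had a mean of 104.5 TPM in EV untreated and 192 TPM in EV auxin cells. Between these groups 7 of the 39 tested members were called higher and 2 lower by edgeR (23.1%, beside 20.7% of all genes).

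**Figure D1:**
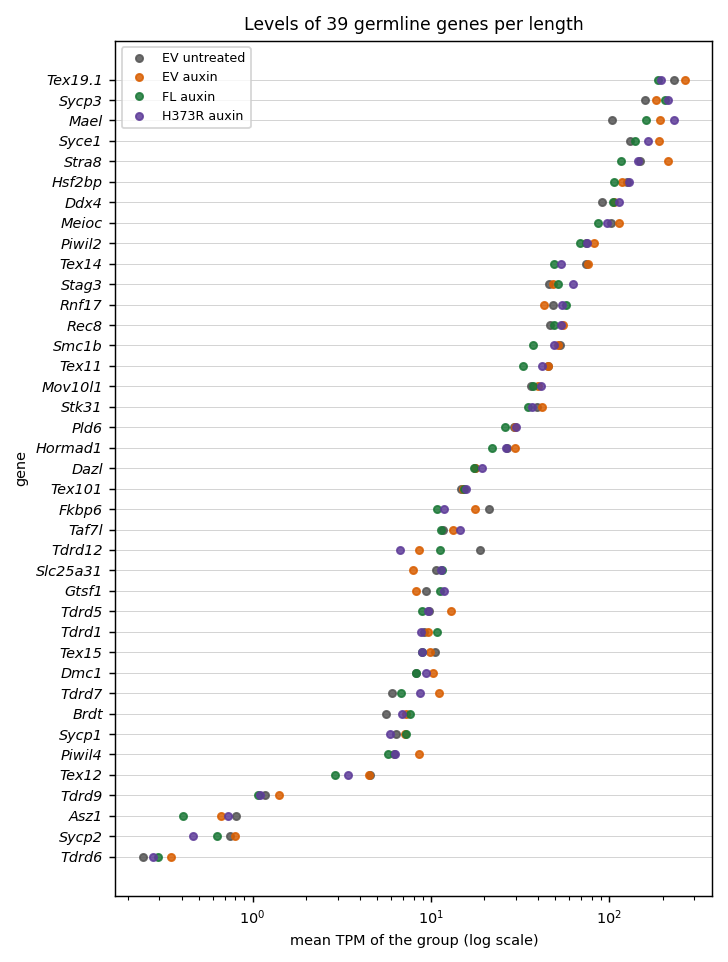
Mean TPM (log scale) of 39 germline genes in the 4 groups, sorted by overall mean, 1 point per group. The 7 genes above 100 TPM on average lie at the top, the groups of most genes lie close together, and Mael and Tdrd12 show the widest separation among genes above 5 TPM.

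Promoter sequence was read from RefSeq windows (GRCm38.p6) that run from 250 bases before to 50 bases after a transcription start. The table holds windows for 34 of the 40 members, 44 windows in all, and none for Piwil2, Rnf17, Spo11, Tdrd6, Tex11 and Tex15. The members' windows were rich in CpG, with a median of 20 against 7 over all 32851 windows. The E-box CACGTG, a palindrome bound by MGA-MAX, lay in 20 of the 44 windows (45.5%, 16 genes), against 7.15% of all windows. Among windows with at least 10 CpG the E-box lay in 20 of 40 member windows and in 10.9% of 14281. The E2F core GCGGGA, on either strand, lay in 17 windows (38.6%) against 20.0% of all, and in CpG-rich windows the shares were 42.5% and 40.3%. A window with both motifs was found 9 times (20.5%) against 1.99%. A G-quadruplex pattern, defined as 4 runs of at least 3 G with 1 to 7 bases between them on either strand, lay in 7 windows (15.9%) of 6 genes, Dmc1, Hormad1, Mael, Meioc, Piwil4 and Tdrd12, against 18.6% of all windows. In CpG-rich windows the shares were 15.0% and 31.5%. The bases between runs could themselves be G, so a long stretch of G could count as several runs. Short variants of the CTCF core (AGGGGGC or AGGTGGC or AGAGGGC or AGATGGC, either strand), added after the promoters had been seen, lay in 15.9% of member windows and 27.6% of all, with 3 matches in the Mael window. Some of the Mael matches overlap its G-quadruplex pattern, so they are in part the same bases. Windows of 1 gene overlap, and these letter matches are descriptions of sequence, not of binding.

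**Figure D2:**
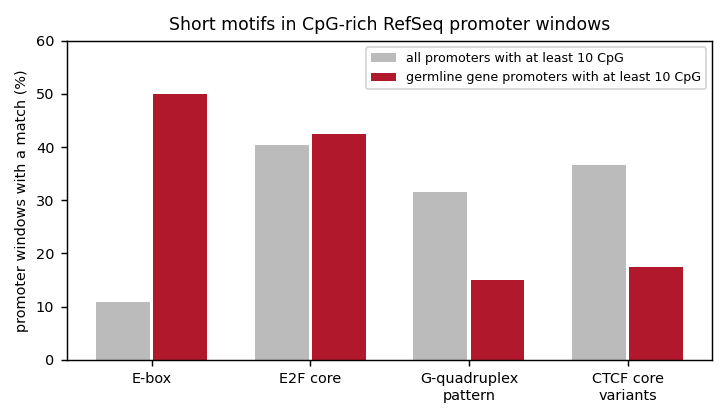
Share of RefSeq promoter windows with at least 10 CpG (y axis, percent) that hold each motif, for the 40 windows of germline genes (red) and all 14281 such windows (grey). The E-box bar of the germline genes stands for 20 of 40 windows, against 10.9%, while their bars for the G-quadruplex pattern and the CTCF core variants are lower than those of all windows.

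The G-quadruplex pattern is shown in capitals for Tdrd12 and Mael, picked as the 2 members with the widest changes. For each, the 100 bases that begin 200 bases before the start are printed. Of the other members with the pattern, Dmc1 and Hormad1 were called in no comparison with all libraries. Meioc was called only in FL against EV auxin cells, and Piwil4 in several comparisons. Fkbp6, Stra8 and Tdrd7, which also had wide called changes, hold no match. A relation between the pattern and the changes was not tested. In Tdrd12 (chr7:35537845-35537944, minus strand) the G runs are on the printed strand. The longest stretch of G there counts as 2 of the runs, with a G inside it taken as the base between them. In Mael (chr1:166238845-166238944, minus strand) the G runs are on the other strand and appear as C runs.
Tdrd12: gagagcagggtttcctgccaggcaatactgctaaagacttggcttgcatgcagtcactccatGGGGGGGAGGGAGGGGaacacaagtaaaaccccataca
Mael: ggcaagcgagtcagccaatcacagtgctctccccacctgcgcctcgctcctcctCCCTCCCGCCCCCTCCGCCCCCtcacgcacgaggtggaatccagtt
Of the 16 members with an E-box, Hormad1, Pld6, Stk31, Sycp1, Tdrd9 and Tex12 were called in no comparison with all libraries. The called members Stra8, Syce1, Tex14 and Tex19.1 hold none in their windows. The E-box is shown for 3 members picked because they were called against EV untreated cells, in both directions, with each E-box in capitals: Sycp3 (chr10:88459487-88459586, plus strand, 100 bases up to the start), Ddx4 (chr13:112652311-112652410, minus strand, 100 bases up to the start) and Fkbp6 (chr5:135350065-135350164, minus strand, from 120 to 21 bases before the start).
Sycp3: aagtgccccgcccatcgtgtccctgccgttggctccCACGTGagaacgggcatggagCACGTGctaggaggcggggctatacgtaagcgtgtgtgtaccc
Ddx4: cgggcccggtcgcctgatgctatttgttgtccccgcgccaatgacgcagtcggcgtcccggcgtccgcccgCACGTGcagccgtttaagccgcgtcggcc
Fkbp6: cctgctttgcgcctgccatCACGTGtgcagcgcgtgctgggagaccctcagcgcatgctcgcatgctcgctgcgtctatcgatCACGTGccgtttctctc

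Gene coordinates are those of GENCODE M21 on GRCm38. Differences were tested in edgeR and called at an adjusted p under 0.05 over all 16420 genes. Fold changes are on the log2 scale with their standard errors, and levels of single genes between groups are TMM-scaled CPM, counts relative to the library total. Auxin in EV cells changed 9 of the 39 tested members (23.1%; 7 higher, 2 lower), and 20.7% of all tested genes were called in that comparison (11.3% higher, 9.40% lower). FL auxin cells differed from EV auxin cells in 17 members (43.6%; 4 higher, 13 lower), where 24.5% of all genes were called (11.1% higher, 13.4% lower). H373R auxin cells differed from EV auxin cells in 15 members (38.5%; 7 higher, 8 lower), where 21.7% were called (11.7% lower, the rest higher). These comparisons share the EV auxin libraries. Between H373R auxin and FL auxin cells, which share no library with the EV groups, 8 members were called (20.5%; 6 higher and 2 lower with H373R), against 5.96% of all genes (3.14% higher, 2.82% lower). Against EV untreated cells, 15 members were called in FL auxin cells (7 higher, 8 lower) and 15 in H373R auxin cells (10 higher, 5 lower), each 38.5%, beside backgrounds of 36.9% (17.7% higher, 19.2% lower) and 44.4% (22.3% higher, 22.1% lower). The balance of higher and lower against EV untreated cells depended on EV untreated replicate 1. Without it the split was 8 higher and 14 lower for FL and 8 higher and 10 lower for H373R auxin cells. With a trend of counts with GC content removed, it was 10 higher and 8 lower for FL and 15 higher and 4 lower for H373R. In that setting 45.2% of all genes were called for FL and 50% for H373R. How all genes split into higher and lower in these alternatives is not given here. The shift in balance therefore cannot be assigned to the members in particular. With auxin in EV cells and against EV untreated cells the members' share was thus close to the background or below it. The feeder fibroblast markers given above were also highest in FL auxin cells and the oocyte and 2-cell-like markers in EV auxin cells, and their part in these differences was not tested. Of the 37 members with a mean of at least 1 CPM, 45.9% were called between FL and EV auxin cells, where genes of that level were called at 27.4%. Between H373R and EV auxin cells the shares were 40.5% and 24.8%, and between H373R and FL auxin cells 21.6% and 6.76%. The members' median log2 fold changes in those 3 comparisons were -0.19, -0.10 and 0.10, beside -0.014, 0.00031 and 0.0025 over all tested genes. Because the members were chosen with earlier results of these data known, a higher share of calls may come from that choice. It is therefore not a test of germline genes as a class.

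How many members were called depended on single libraries. Without EV auxin replicate 1, 10 members were called in FL against EV auxin and 7 in H373R against EV auxin, where the shares of all genes were 12.9% and 8.85%. Without EV auxin replicate 2 the H373R count was 8, beside 9.13% of all genes. For H373R against FL the count was 5 without FL auxin replicate 2, H373R auxin replicate 1 or H373R auxin replicate 3, beside 3.37%, 3.78% and 3.12% of all genes. It was 4 without H373R auxin replicate 2, beside 3.19%. Without EV untreated replicate 1 the counts were 13 for EV auxin, 22 for FL auxin and 18 for H373R auxin against EV untreated cells, beside 33.3%, 47.2% and 54.7% of all genes. In all, 27 of the 39 members (69.2%) were called in at least 1 comparison, as were 59.4% of all tested genes. The 12 called in none were Asz1, Dazl, Dmc1, Hormad1, Pld6, Stk31, Sycp1, Tdrd6, Tdrd9, Tex101, Tex12 and Tex15. Of their 72 results, 6 had an unadjusted p under 0.05, and DESeq2 called none of the 12 members. In at least 1 alternative 8 of them were called, all but Pld6, Tdrd6, Tdrd9 and Tex101.

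Leaving out EV untreated replicate 1 gained 4 member calls for EV auxin, 7 for FL auxin and 5 for H373R auxin cells against EV untreated cells. It lost the calls of Taf7l and Brdt with H373R, and gained 11 in the 3 comparisons that hold no EV untreated library. In those 3, the share of all genes called rose too. It went from 24.5% to 35.5% for FL and from 21.7% to 33.0% for H373R against EV auxin, and from 5.96% to 14.2% for H373R against FL. Of the 12 members named above, Asz1, Hormad1, Stk31, Tex12 and Tex15 were then called. All 5 were lower in FL auxin than in EV untreated cells, with log2 changes of -0.43 (adjusted p = 0.000360) for Hormad1, -0.36 (0.00322) for Tex15, -0.23 (0.00287) for Stk31, -0.86 (0.0278) for Tex12 and -1.03 (0.0476) for Asz1. Tex15 and Stk31 were also lower in H373R auxin than in EV untreated cells, at -0.39 (adjusted p = 0.000955) and -0.19 (0.00609), and Tex15 in EV auxin cells, at -0.27 (0.0458). Meioc was lower with FL, at -0.34 (adjusted p = 2.26e-05), and with H373R, at -0.21 (0.00218). The other gains were Syce1 (0.17, 0.0119) with FL and Tex11 (-0.25, 0.00125) and Smc1b (-0.19, 0.0137) with H373R, and Rnf17 (-0.33, 0.000229), Rec8 (0.23, 0.0145) and Hsf2bp (-0.13, 0.0494) in EV auxin cells. Removing the GC trend instead called 5 of the 12 members, Dazl, Dmc1, Hormad1, Stk31 and Sycp1. For H373R against EV untreated cells it gave Meioc 0.11 (adjusted p = 0.0390) and Hormad1 0.22 (0.0289), so for Meioc the direction of the call differed between these alternatives.

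**Figure D3:**
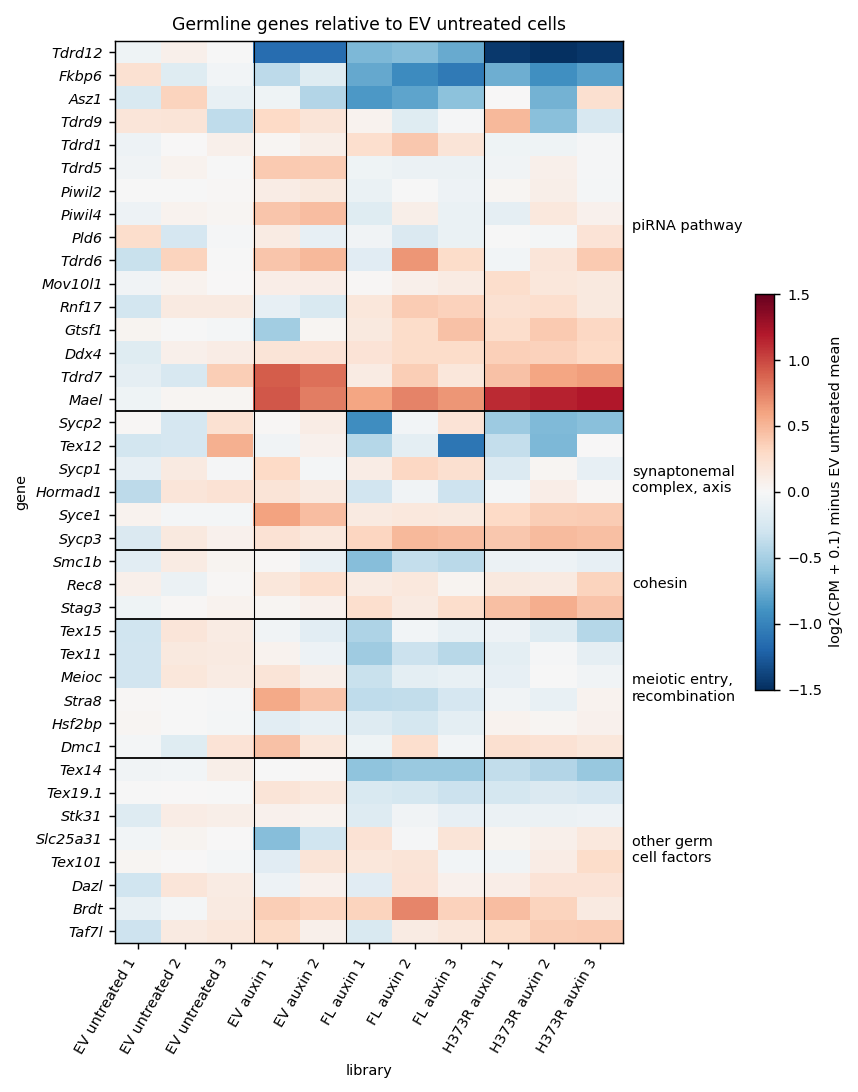
Difference of log2(CPM + 0.1) from the EV untreated mean (colour) for 39 germline genes (rows, grouped by role) in the 11 libraries (columns). Tdrd12 is blue and Mael red in all 8 auxin libraries, and EV untreated replicate 1 is bluer than its 2 replicates for Hormad1, Tex15, Tex11, Meioc, Dazl and Taf7l.

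Among the 16 piRNA pathway members, Tdrd12 and Mael moved the most. Tdrd12 (chr7:35469098-35537745, minus strand), which encodes a Tudor-domain helicase of the secondary piRNA cycle, was the only member called lower in all 3 auxin groups than in EV untreated cells. It measured 20.8, 22.9 and 21.6 CPM in the EV untreated libraries and 9.75 and 9.75 in the EV auxin libraries. The FL auxin libraries held 13.6, 13.9 and 12.8 CPM and the H373R auxin libraries 7.92, 7.55 and 7.85. The 4 groups did not overlap, with EV untreated cells highest, then FL, then EV auxin, and H373R auxin cells lowest. The log2 fold change was -1.15 (SE 0.082, adjusted p = 9.14e-08) for EV auxin and -1.48 (SE 0.073, adjusted p = 1.07e-09) for H373R auxin against EV untreated cells. FL auxin cells stayed below EV untreated cells (log2 change -0.70, SE 0.071, adjusted p = 3.42e-06) and lay above EV auxin cells (log2 change 0.46, SE 0.088, adjusted p = 0.00161). With H373R CTCF, Tdrd12 was lower than with FL CTCF (log2 change -0.78, SE 0.079, adjusted p = 2.49e-05) and lower than in EV auxin cells (log2 change -0.33, SE 0.090, adjusted p = 0.0173). The last of these calls was lost without EV auxin replicate 1 (adjusted p = 0.0918), EV auxin replicate 2 (0.110) or H373R auxin replicate 2 (0.0639), and in DESeq2 (0.0526).

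Mael (chr1:166201201-166238747, minus strand), whose product is a piRNA factor of the germ granule, was the only member called higher in all 3 auxin groups than in EV untreated cells. Its libraries held 45.9, 49.3 and 49.3 CPM in EV untreated and 92.3 and 82.1 in EV auxin cells. With FL CTCF the values were 72.7, 81.0 and 76.1 and with H373R CTCF 105, 108 and 110.4. EV untreated cells were lowest and H373R auxin cells highest, and the groups did not overlap, although the highest FL auxin library lay just under the lower EV auxin library. The log2 fold change against EV untreated cells was 0.85 (SE 0.065, adjusted p = 1.74e-07) for EV auxin, 0.67 (SE 0.060, adjusted p = 1.03e-06) for FL auxin and 1.16 (SE 0.059, adjusted p = 1.45e-09) for H373R auxin cells. H373R auxin cells exceeded FL auxin cells (log2 change 0.49, SE 0.058, adjusted p = 0.000105) and EV auxin cells (log2 change 0.31, SE 0.064, adjusted p = 0.00373), the latter call being lost without EV auxin replicate 2 (adjusted p = 0.0892). The difference between FL and EV auxin cells, -0.19 (SE 0.065, adjusted p = 0.0479), lay close to the threshold. The call was lost in DESeq2 (adjusted p = 0.0878), with a replicate block (0.0517), and without EV auxin replicate 1 (-0.10, adjusted p = 0.423), FL auxin replicate 1 (0.159) or 3 (0.105), EV untreated replicate 2 (0.0670) or 3 (0.0552), or any of the H373R auxin libraries (0.0800 to 0.0859).

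**Figure D4:**
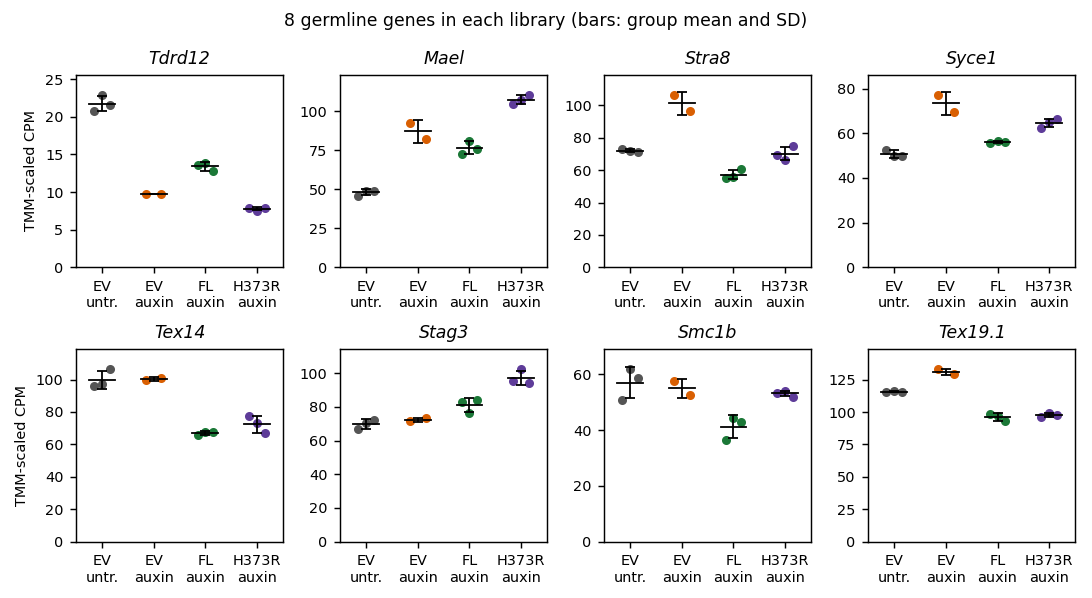
TMM-scaled CPM (y axis) of 8 germline genes in each library (points) of the 4 groups, with the group mean and SD as lines. Tdrd12 is lowest and Mael highest in H373R auxin cells, Stra8, Syce1 and Tex19.1 are highest in EV auxin cells, and Smc1b is lowest in FL auxin cells.

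Several other Tudor-domain and PIWI members were highest in EV auxin cells. Tdrd5 (chr1:156255296-156303664, minus strand), needed for assembly of germ granules, held 17.3, 18.7 and 17.9 CPM in EV untreated, 23.7 and 23.4 in EV auxin, 17.2, 16.9 and 16.9 in FL auxin and 17.3, 18.9 and 17.8 in H373R auxin libraries. Only the EV auxin libraries stood apart, above all others. Tdrd5 rose with auxin in EV cells (log2 change 0.39, SE 0.071, adjusted p = 0.00108) and was lower in FL auxin cells (log2 change -0.47, SE 0.074, adjusted p = 0.000387) and in H373R auxin cells (log2 change -0.38, SE 0.072, adjusted p = 0.00161). It shares 176 exonic bases with the antisense gene 4930518J20Rik, and the sources used here do not give the strand setting of the counting. Tdrd7 (chr4:45965334-46034761, plus strand), a germ granule protein that also acts in the eye lens, measured 5.69, 5.29 and 8.08 CPM in EV untreated and 11.8 and 11.1 in EV auxin cells, then 6.82, 8.13 and 7.04 with FL and 8.48, 9.43 and 9.69 with H373R CTCF. EV auxin cells were again highest without overlap, and H373R auxin cells lay above all EV untreated and FL auxin libraries. Its log2 fold change against EV untreated cells was 0.84 (SE 0.14, adjusted p = 0.000655) in EV auxin and 0.52 (SE 0.13, adjusted p = 0.00436) in H373R auxin cells. It was lower in FL than in EV auxin cells (log2 change -0.66, SE 0.15, adjusted p = 0.00507), while the difference between H373R and EV auxin cells was -0.31 (SE 0.14, adjusted p = 0.126). Piwil4, the nuclear PIWI protein of fetal male germ cells, showed the pattern of Tdrd5, with mean levels of 8.90 ± 0.418 CPM (EV untreated), 12.1 ± 0.231 CPM (EV auxin), 8.53 ± 0.864 CPM (FL) and 9.12 ± 0.947 CPM (H373R). Its log2 fold change was 0.45 (SE 0.10, adjusted p = 0.00639) with auxin in EV cells, -0.52 (SE 0.11, adjusted p = 0.00316) for FL and -0.41 (SE 0.11, adjusted p = 0.0118) for H373R against EV auxin cells. The first call was lost without EV auxin replicate 2 (adjusted p = 0.0884) and the last without EV auxin replicate 1 (0.0635) or 2 (0.103) or H373R auxin replicate 1 (0.0521). Piwil4 shares 137 exonic bases with the antisense gene Gm10706. Piwil2, a cytoplasmic PIWI protein, was called once, lower in FL than in EV auxin cells (log2 change -0.19, SE 0.053, adjusted p = 0.0141), and this call was lost without either EV auxin library (0.0614 and 0.144) or FL auxin replicate 1 (0.0558).

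Fkbp6 (chr5:135291704-135350044, minus strand), a co-chaperone in piRNA loading, was lower in both groups with reintroduced CTCF. It held 11.6, 8.66 and 9.62 CPM in EV untreated, 7.47 and 8.68 in EV auxin, 5.77, 5.09 and 4.69 in FL auxin and 5.89, 5.19 and 5.58 in H373R auxin libraries. The EV groups overlapped each other, as did FL and H373R auxin cells, and the latter lay below all EV libraries. Its log2 fold change against EV untreated cells was -0.95 (SE 0.13, adjusted p = 3.83e-05) with FL and -0.85 (SE 0.12, adjusted p = 3.51e-05) with H373R. Against EV auxin cells the values were -0.64 (SE 0.14, adjusted p = 0.00481) and -0.55 (SE 0.14, adjusted p = 0.0106), and both calls were lost without EV auxin replicate 2 (0.102 and 0.168). Auxin in EV cells gave -0.30 (SE 0.13, adjusted p = 0.112), which was not called.

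Ddx4 (chr13:112598333-112652475, minus strand), the germ cell helicase also known as Vasa, was higher in FL and H373R auxin cells than in EV untreated cells. The libraries held 64.1, 76.6 and 79.0 CPM in EV untreated, 83.7 and 83.8 in EV auxin, 84.4, 88.7 and 88.1 in FL auxin and 93.2, 92.4 and 90.1 in H373R auxin cells. The groups did not overlap, but EV untreated replicate 1 was well below the other 2 of its group. Its log2 fold changes were 0.25 (SE 0.066, adjusted p = 0.00788) and 0.33 (SE 0.065, adjusted p = 0.000792) for FL and H373R against EV untreated cells, and without EV untreated replicate 1 they were 0.16 (0.00756) and 0.23 (0.000184). Auxin in EV cells gave 0.19 (SE 0.073, adjusted p = 0.0737).

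Of the remaining piRNA members, Rnf17, Gtsf1, Tdrd1 and Mov10l1 were called, and their widest called changes were smaller than those of Tdrd12 and Mael. Rnf17, a Tudor-domain protein of germ granules, had its lowest mean in EV auxin cells (70.3 ± 3.38 CPM, against 80.0 ± 12.7 CPM in EV untreated cells, which overlapped them, 98.0 ± 7.42 CPM with FL and 91.8 ± 3.45 CPM with H373R CTCF). It was called above EV auxin cells with FL (log2 change 0.48, SE 0.11, adjusted p = 0.00406) and with H373R (log2 change 0.39, SE 0.10, adjusted p = 0.0154), and above EV untreated cells with FL (log2 change 0.29, SE 0.092, adjusted p = 0.0208). The first of these was lost without EV auxin replicate 2 (0.0585), the next without either EV auxin library (0.0651 and 0.143), and the last without FL auxin replicate 2 or 3 (0.0775 and 0.0710). Without EV untreated replicate 1 the last value was 0.16 (adjusted p = 0.0220). Gtsf1, a zinc finger partner of PIWI proteins, was higher in FL (log2 change 0.49, SE 0.16, adjusted p = 0.0399) and H373R auxin (log2 change 0.52, SE 0.16, adjusted p = 0.0276) than in EV auxin cells. Both calls rested on EV auxin replicate 1, without which they became 0.27 (0.329) and 0.30 (0.284), while without EV auxin replicate 2 they were 0.85 (0.0159) and 0.87 (0.0160). They were also lost in DESeq2 (0.0753 and 0.0515), without FL auxin replicate 2 or 3 (0.0685 and 0.138) and H373R auxin replicate 2 or 3 (0.0698 and 0.0599). Tdrd1, a Tudor-domain scaffold, was higher in FL auxin than in EV untreated cells (log2 change 0.28, SE 0.077, adjusted p = 0.0102) and lower with H373R than with FL (log2 change -0.33, SE 0.078, adjusted p = 0.0207). The latter call was lost without FL auxin replicate 2 (0.0958) or any 1 of the H373R auxin libraries (0.0509 to 0.0761). Mov10l1, the helicase that feeds piRNA precursors into processing, was called once, higher in H373R auxin than in EV untreated cells (log2 change 0.20, SE 0.055, adjusted p = 0.00954), a call lost without H373R auxin replicate 1 (0.0703). Asz1 and Pld6, which act at the mitochondrial membrane, and Tdrd6 and Tdrd9 were not called with all libraries, at mean levels of at most 0.646 CPM for Asz1 and Tdrd6, 1.98 CPM for Tdrd9 and 14.2 CPM for Pld6.

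Of the 6 members of the synaptonemal complex and chromosome axis, Syce1 and Sycp3 changed, and the low-count Sycp2 was called once. Syce1 (chr7:140777229-140787852, minus strand), a central element protein, held 52.7, 49.7 and 49.7 CPM in EV untreated and 77.0 and 69.7 in EV auxin libraries. It held 55.8, 56.6 and 55.9 with FL and 62.6, 65.2 and 66.2 with H373R CTCF. The groups did not overlap, with EV untreated cells lowest, then FL, H373R and EV auxin cells. Syce1 rose with auxin in EV cells (log2 change 0.53, SE 0.059, adjusted p = 1.12e-05) and was lower in FL than in EV auxin cells (log2 change -0.39, SE 0.060, adjusted p = 0.000351). In H373R auxin cells it was above EV untreated cells (log2 change 0.35, SE 0.053, adjusted p = 8.56e-05), above FL auxin cells (log2 change 0.21, SE 0.054, adjusted p = 0.0358) and below EV auxin cells (log2 change -0.18, SE 0.059, adjusted p = 0.0409). The H373R against FL call was lost without any 1 of the FL or H373R auxin libraries (0.0710 to 0.169). The H373R against EV auxin call was lost without EV auxin replicate 1 (-0.11, adjusted p = 0.399), any H373R auxin library (0.0750 to 0.137), EV untreated replicate 2 (0.0630) or FL auxin replicate 2 or 3 (0.0524 and 0.0580), in DESeq2 (0.0597) and with a replicate block (0.0616).

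Sycp3 (chr10:88459569-88473236, plus strand), a lateral element protein, was higher with either reintroduced CTCF than in EV untreated cells. Its libraries measured 46.1, 59.3 and 55.9 CPM in EV untreated, 62.3 and 59.6 in EV auxin, 66.7, 74.9 and 73.6 in FL auxin and 70.6, 74.6 and 73.0 in H373R auxin cells. FL and H373R auxin cells overlapped and lay above both EV groups, which came close to each other without overlap. The log2 fold change against EV untreated cells was 0.42 (SE 0.078, adjusted p = 0.000701) with FL and 0.44 (SE 0.077, adjusted p = 0.000278) with H373R, and without EV untreated replicate 1 it was 0.31 (6.06e-05) and 0.33 (1.76e-05). H373R auxin cells were also called above EV auxin cells (log2 change 0.26, SE 0.087, adjusted p = 0.0465), a call lost without either EV auxin library (0.136 and 0.245), any H373R auxin library (0.0669 to 0.101) or FL auxin replicate 2 or 3 (0.0546 and 0.0606). Sycp3 shares 660 exonic bases with Chpt1 on the opposite strand, so part of its counts is uncertain. Sycp2, with 12 to 38 counts per library, was lower in H373R auxin than in EV untreated cells (log2 change -0.70, SE 0.27, adjusted p = 0.0423). This was not called in DESeq2 (0.124), without EV untreated replicate 3 (0.150), without any H373R auxin library (0.0747 to 0.102), without either EV auxin library (0.0520 and 0.0566), without FL auxin replicate 2 (0.0501) or once the GC trend was removed (0.101). Sycp1, the transverse filament protein, Tex12 and Hormad1 were not called with all libraries. Without EV untreated replicate 1, Tex12 and Hormad1 were called lower in FL auxin than in EV untreated cells. Hormad1 was then also lower in FL than in EV auxin cells, at -0.38 (adjusted p = 0.00251), and higher with H373R than with FL, at 0.25 (0.0480).

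Of the 3 meiotic cohesin members, Stag3 and Smc1b were both higher with H373R than with FL CTCF, where 5.96% of all genes were called. None of the 3 was called by edgeR with auxin in EV cells, beside 20.7% of all genes. There, 1 had an unadjusted p under 0.05 and DESeq2 called 0. So few genes cannot be told apart from these shares. Stag3 (chr5:138280240-138312393, plus strand), the meiotic STAG subunit, held 66.9, 70.5 and 72.4 CPM in EV untreated, 71.6 and 73.1 in EV auxin, 83.1, 76.6 and 84.2 in FL auxin and 95.5, 102 and 93.9 in H373R auxin libraries. The EV groups overlapped, FL auxin cells lay above them, and H373R auxin cells above all others. H373R auxin cells exceeded EV untreated cells (log2 change 0.47, SE 0.054, adjusted p = 5.33e-06), EV auxin cells (log2 change 0.42, SE 0.061, adjusted p = 0.000302) and FL auxin cells (log2 change 0.25, SE 0.054, adjusted p = 0.0104). The last call was lost without FL auxin replicate 2 (adjusted p = 0.0600) or H373R auxin replicate 2 (0.0657). FL auxin cells exceeded EV untreated cells (log2 change 0.22, SE 0.055, adjusted p = 0.00536), while FL against EV auxin gave 0.17 (SE 0.062, adjusted p = 0.0576). Smc1b (chr15:85064689-85131964, minus strand), the meiotic SMC1 subunit, was lowest in FL auxin cells. It held 50.8, 61.8 and 58.6 CPM in EV untreated, 57.5 and 52.7 in EV auxin, 36.5, 44.5 and 42.8 in FL auxin and 53.4, 54.1 and 52.0 in H373R auxin libraries. FL auxin cells lay below every other library, and the other 3 groups overlapped. In FL auxin cells its log2 fold change was -0.47 (SE 0.081, adjusted p = 0.000371) against EV untreated and -0.42 (SE 0.091, adjusted p = 0.00357) against EV auxin cells, and H373R exceeded FL (log2 change 0.37, SE 0.082, adjusted p = 0.0126). The call against EV auxin cells was lost without EV auxin replicate 1 (0.0549), and the call between H373R and FL without FL auxin replicate 1 (0.0577) or H373R auxin replicate 1 (0.0547) or 2 (0.0558). Rec8, the meiotic kleisin, was called only for H373R auxin against EV untreated cells (log2 change 0.21, SE 0.068, adjusted p = 0.0199). This value became 0.049 (0.497) once a trend with GC content was removed, and the call was also lost without EV untreated replicate 2 (0.0746) or H373R auxin replicate 3 (0.13, adjusted p = 0.160).

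**Figure D5:**
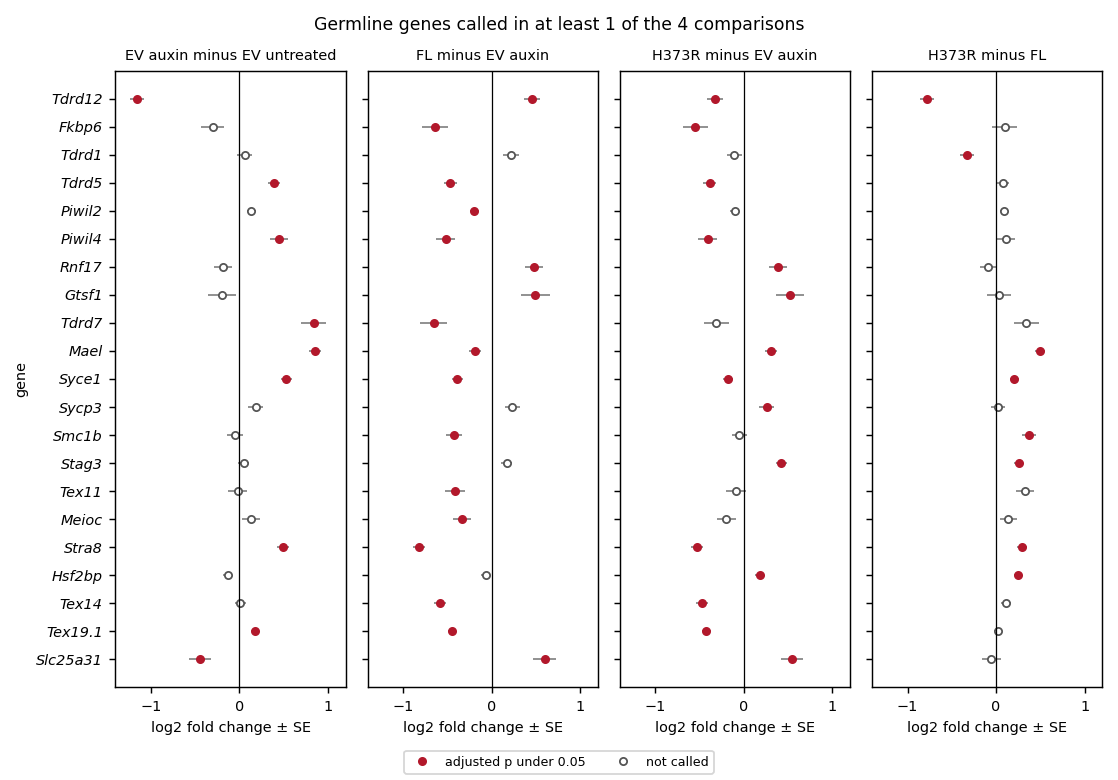
Log2 fold change with its SE (x axis) of the 21 germline genes (rows) called in at least 1 of 4 comparisons (panels), with called genes filled in red. The first 3 panels share the EV auxin libraries, so opposite signs between the first and the other 2 follow in part from that sharing. The fourth panel compares groups without them, but its SE and calls use the spread estimated from all 11 libraries.

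Of the meiotic entry and recombination members, Stra8 had the widest called difference between FL and EV auxin cells among all members. Stra8 (chr6:34920163-34939344, plus strand), the retinoic acid-induced gene that starts meiosis, held 73.0, 71.6 and 71.3 CPM in EV untreated and 106 and 96.4 in EV auxin libraries. It held 55.4, 55.7 and 60.6 with FL and 69.3, 66.5 and 74.7 with H373R CTCF. EV auxin cells were highest and FL auxin cells lowest without overlap, and H373R auxin cells overlapped EV untreated cells. Stra8 rose with auxin in EV cells (log2 change 0.49, SE 0.064, adjusted p = 5.21e-05). It was lower in FL auxin than in EV auxin cells (log2 change -0.82, SE 0.065, adjusted p = 8.36e-07) and than in EV untreated cells (log2 change -0.33, SE 0.060, adjusted p = 0.000555). In H373R auxin cells it was below EV auxin cells (log2 change -0.53, SE 0.064, adjusted p = 9.44e-05) and above FL auxin cells (log2 change 0.29, SE 0.060, adjusted p = 0.00795), and against EV untreated cells the value was -0.035 (SE 0.058, adjusted p = 0.653). The H373R against FL call was lost without H373R auxin replicate 3 (adjusted p = 0.0676). Hsf2bp (chr17:31944769-32036349, minus strand), which brings BRCA2 to meiotic breaks, was lower in FL auxin than in EV untreated and H373R auxin cells. Its libraries held 123, 121 and 119 CPM in EV untreated, 108 and 112 in EV auxin, 106, 101 and 109 in FL auxin and 125, 124 and 126 in H373R auxin cells. FL and EV auxin cells overlapped, and H373R auxin cells lay above both and just above EV untreated cells. FL auxin cells were below EV untreated cells (log2 change -0.20, SE 0.045, adjusted p = 0.00308). H373R auxin cells exceeded FL (log2 change 0.25, SE 0.045, adjusted p = 0.00397) and EV auxin (log2 change 0.18, SE 0.051, adjusted p = 0.0204). The last call was lost without EV auxin replicate 1 (0.170) or 2 (0.0771) or H373R auxin replicate 3 (0.0569). Hsf2bp shares 54 exonic bases with Rrp1b.

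Meioc, a partner of the meiotic RNA program, and Tex11, a recombination factor on the X chromosome, were lower in FL than in EV auxin cells. The log2 fold changes were -0.34 (SE 0.10, adjusted p = 0.0293) for Meioc and -0.42 (SE 0.11, adjusted p = 0.0136) for Tex11. Both calls were lost without EV auxin replicate 1 (0.192 and 0.123) or FL auxin replicate 1 (0.108 and 0.0558), and that of Meioc also without EV auxin replicate 2 (0.0888), FL auxin replicate 2 (0.0505) or H373R auxin replicate 3 (0.0502). Tex11 was also lower in FL auxin than in EV untreated cells (log2 change -0.44, SE 0.10, adjusted p = 0.00322). Dmc1, the meiotic recombinase, with means of 5.31 to 6.58 CPM, and Tex15 were not called with all libraries.

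Among the other germ cell factors, Tex14 and Tex19.1 were lower with either reintroduced CTCF than in both EV groups. Tex14 (chr11:87405065-87555823, plus strand), a protein of the bridges that join germ cells, held 95.7, 97.0 and 106 CPM in EV untreated, 99.5 and 101 in EV auxin, 65.6, 67.8 and 67.7 in FL auxin and 77.2, 73.1 and 67.0 in H373R auxin libraries. The EV groups overlapped each other, the FL and H373R groups overlapped each other, and both EV groups lay above both of the latter. For Tex14 the log2 fold change against EV untreated cells was -0.57 (SE 0.059, adjusted p = 4.16e-06) with FL and -0.46 (SE 0.058, adjusted p = 1.46e-05) with H373R. Against EV auxin cells it was -0.58 (SE 0.066, adjusted p = 2.36e-05) and -0.47 (SE 0.065, adjusted p = 0.000221). Between H373R and FL it was 0.11 (SE 0.060, adjusted p = 0.316), and with auxin in EV cells 0.0096 (SE 0.064, adjusted p = 0.939). Tex19.1 (chr11:121146143-121148319, plus strand), a regulator of transposons and of meiotic chromosomes that is also active in pluripotent cells, held 116, 116 and 115 CPM in EV untreated and 133 and 129 in EV auxin cells. It held 98.6, 96.9 and 93.0 with FL and 96.4, 99.4 and 97.5 with H373R CTCF. EV auxin cells were highest, EV untreated cells next, and FL and H373R auxin cells lowest and overlapping. The log2 fold change against EV untreated cells was -0.27 (SE 0.044, adjusted p = 0.000234) with FL and -0.24 (SE 0.043, adjusted p = 0.000315) with H373R. Against EV auxin cells it was -0.45 (SE 0.049, adjusted p = 1.66e-05) and -0.42 (SE 0.048, adjusted p = 6.40e-05). Its rise with auxin in EV cells, 0.18 (SE 0.048, adjusted p = 0.0155), was lost without EV auxin replicate 1 (0.130) or 2 (0.0933).

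Slc25a31, a germ cell ADP/ATP carrier, was lowest in EV auxin cells, at 4.41 ± 0.751 CPM, against 6.08 ± 0.187 CPM in EV untreated, 6.70 ± 0.609 CPM in FL and 6.50 ± 0.274 CPM in H373R auxin cells. It fell with auxin in EV cells (log2 change -0.44, SE 0.12, adjusted p = 0.0200) and was higher in FL (log2 change 0.60, SE 0.13, adjusted p = 0.00352) and H373R auxin (log2 change 0.54, SE 0.13, adjusted p = 0.00637) than in EV auxin cells. All 3 calls were lost without EV auxin replicate 1 (0.213, 0.0539 and 0.0969), the lower of the EV auxin libraries, and the first also in DESeq2 (0.0504). Brdt, the testis bromodomain protein, was higher than in EV untreated cells with FL (log2 change 0.46, SE 0.12, adjusted p = 0.00730) and H373R (log2 change 0.31, SE 0.12, adjusted p = 0.0411). The H373R and EV untreated libraries overlapped, and the H373R call was lost in DESeq2 (0.0690), without EV untreated replicate 1 (0.0887) or 2 (0.0789), without either EV auxin library (0.0532 and 0.0609) and without H373R auxin replicate 1 (0.203) or 2 (0.0865). Taf7l, a testis TFIID subunit, was higher with H373R than in EV untreated cells (log2 change 0.34, SE 0.13, adjusted p = 0.0423). The value was 0.18 (0.168) without EV untreated replicate 1. The call was also lost in DESeq2 (0.0767), without any H373R auxin library (0.0725 to 0.129), EV auxin replicate 2 (0.0549) or FL auxin replicate 2 (0.0501). Dazl, the germ cell RNA-binding protein, Stk31, a Tudor-domain kinase, and Tex101, a surface protein of germ cells, were not called with all libraries, with group means of 17.7 to 20.0, 31.2 to 35.5 and 6.47 to 7.03 CPM.

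Other genes of these pathways were read from lists drawn up by function, with earlier results of these data known. Of 9 tested piRNA genes outside the members, 3 rose with auxin in EV cells (33.3%, beside 20.7% of all genes called): the Tdrd12 partner Exd1 (log2 change 0.64, SE 0.10, adjusted p = 0.000296), the mitochondrial factor Gpat2 (log2 change 0.46, SE 0.083, adjusted p = 0.000877) and Tdrkh (log2 change 0.22, SE 0.066, adjusted p = 0.0261). In FL auxin cells 5 of the 9 were lower than in EV auxin cells and none higher (55.6%, beside 24.5% of all genes). They included Gpat2 (log2 change -0.37, SE 0.085, adjusted p = 0.00507), Mybl1, a transcription factor of piRNA genes (log2 change -0.47, SE 0.12, adjusted p = 0.00816), and Piwil1, a PIWI protein of later male germ cells (log2 change -0.78, SE 0.21, adjusted p = 0.0131). In H373R auxin cells 4 were lower than in EV auxin cells (44.4%, beside 21.7% of all genes), led by Piwil1 (log2 change -0.88, SE 0.20, adjusted p = 0.00617), Exd1 (log2 change -0.38, SE 0.10, adjusted p = 0.0134) and Mybl1 (log2 change -0.42, SE 0.11, adjusted p = 0.0156). Gpat2 was the 1 gene called between H373R and FL auxin cells (log2 change 0.32, SE 0.076, adjusted p = 0.0219), a share of 11.1% beside 5.96% of all genes. Of 24 tested meiosis genes outside the members, 3 rose and none fell with auxin in EV cells (12.5%, beside 20.7% of all genes). They were the strand exchange factor Mnd1 (log2 change 0.81, SE 0.063, adjusted p = 2.23e-07), the DNA break factor Mei4 (log2 change 0.76, SE 0.11, adjusted p = 0.000125) and the meiotic kleisin Rad21l (log2 change 0.99, SE 0.30, adjusted p = 0.0284). The axis protein Hormad2 was lower than in EV auxin cells with FL (log2 change -0.87, SE 0.14, adjusted p = 0.000413) and with H373R (log2 change -0.79, SE 0.13, adjusted p = 0.000818). So was the DNA break factor Rec114 with FL (log2 change -0.52, SE 0.10, adjusted p = 0.00219) and with H373R (log2 change -0.44, SE 0.10, adjusted p = 0.00555). Syce3, a central element protein, was lower with FL (log2 change -0.89, SE 0.24, adjusted p = 0.0157). Against EV auxin cells, 12.5% of the meiosis genes were called with FL and 8.33% with H373R, below the 24.5% and 21.7% of all genes. None of the 24 was called by edgeR between H373R and FL, beside 5.96% of all genes. There, 3 had an unadjusted p under 0.05 and DESeq2 called 0. Against EV untreated cells, 7 of the 24 were called with FL (3 higher, 4 lower) and 10 with H373R (4 higher, 6 lower), and for the piRNA genes 4 (2 and 2) and 6 (3 and 3) of 9. These were 29.2% and 41.7% of the meiosis genes and 44.4% and 66.7% of the piRNA genes, beside 36.9% and 44.4% of all genes.

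Of 22 genes for repressors of germline genes in embryonic stem cells, 3 rose and 1 fell with auxin in EV cells, a share of 18.2% beside the 20.7% of all genes. The de novo DNA methyltransferase Dnmt3b rose (log2 change 0.36, SE 0.046, adjusted p = 4.98e-05), as did Max (log2 change 0.20, SE 0.052, adjusted p = 0.0110) and Dnmt3a (log2 change 0.16, SE 0.045, adjusted p = 0.0183). L3mbtl2, a PRC1.6 subunit, fell (log2 change -0.21, SE 0.066, adjusted p = 0.0362). In FL auxin cells Dnmt3a exceeded EV auxin cells (log2 change 0.33, SE 0.046, adjusted p = 0.000125), and it was the 1 repressor called between H373R and FL, lower with H373R (log2 change -0.35, SE 0.041, adjusted p = 9.01e-05). That was 4.55% of the repressors, beside 5.96% of all genes. Between H373R and EV auxin cells 6 repressors were called (2 higher, 4 lower), 27.3% beside 21.7% of all genes. Max and Mga, which bind the E-box as a pair, were both lower there (log2 change -0.20, SE 0.052, adjusted p = 0.0134 and log2 change -0.35, SE 0.092, adjusted p = 0.0138). Max was also lower in FL than in EV auxin cells (log2 change -0.17, SE 0.052, adjusted p = 0.0243). In that comparison 4 repressors were called (2 higher, 2 lower), 18.2% beside 24.5% of all genes. Against EV untreated cells 7 were called with FL (31.8%) and 10 with H373R (45.5%), beside 36.9% and 44.4% of all genes. A relation of Max and Mga to the members was not tested. Among 12 primordial germ cell markers, 1 rose and 5 fell with auxin in EV cells (50%, beside 20.7% of all genes). Dppa3, also known as Stella, rose (log2 change 1.05, SE 0.075, adjusted p = 9.27e-08), and Alpl, an alkaline phosphatase (log2 change -0.48, SE 0.049, adjusted p = 4.74e-06) and the regulator Prdm14 (log2 change -0.41, SE 0.060, adjusted p = 0.000170) led those that fell. Dppa3 was lower than in EV auxin cells with FL (log2 change -1.35, SE 0.080, adjusted p = 6.44e-08) and H373R (log2 change -0.96, SE 0.075, adjusted p = 4.33e-06) and higher with H373R than with FL (log2 change 0.39, SE 0.076, adjusted p = 0.00645). Alpl was higher with FL than in EV auxin cells (log2 change 0.49, SE 0.049, adjusted p = 7.62e-06) and lower with H373R than with FL (log2 change -0.42, SE 0.043, adjusted p = 3.04e-05). Against EV untreated cells 9 of the 12 markers were called with FL (3 higher, 6 lower) and 7 with H373R (2 higher, 5 lower). These shares were 75% and 58.3%, beside 36.9% and 44.4% of all genes.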

How the data were processed

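RNA-seq of 11 libraries was analysed. The authors deposited 1 table of counts per gene and 1 table of TPM (scaled for gene length and library total), and the submitters' processing notes name featureCounts, Subread 2.0.3, DESeq2 and the mm10 and GRCm38 builds without giving their roles. The aligner and the strand setting of the counting are not given in the sources used here.

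Counts were tested with edgeR 4.0.16 (R 4.3.3): TMM scaling, a low-count filter (filterByExpr, which left 16420 genes), 1 mean per group fitted to the 11 libraries together, the quasi-likelihood F test and Benjamini-Hochberg adjustment over all tested genes, with a call at an adjusted p under 0.05. All groups shared 1 estimate of spread because EV auxin has 2 libraries. The SE of a log2 fold change is its size divided by the square root of F. The biological coefficient of variation was 0.0578. The script was tested on simulated counts.

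Every called member is named, and values in each library are given for the 14 members with the smallest adjusted p among those with a mean of at least 1 CPM. Of other gene lists, up to 3 genes with the smallest adjusted p per comparison are named. The members, lists and markers were chosen with earlier results of these data known, and the CTCF core variants and the removal of a GC content trend were added after seeing the data. Promoter windows came from RefSeq (GRCm38.p6), gene positions and GC content from GENCODE M21 (GRCm38). Alternatives were DESeq2 1.42.0, limma 3.58.1 on log2(TPM + 1) or log2(TPM + 0.1), other scalings and filters, a replicate block, a stricter threshold and leaving out each library.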

Additional observations from a re-analysis of the deposited data

How the results depend on the processing

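Of the 79 called member results, 42 stayed called in all 24 alternatives, 37 were lost in at least 1, and none changed sign. By comparison, the calls kept throughout were 6 of 9 for EV auxin against EV untreated, 8 of 17 for FL and 5 of 15 for H373R against EV auxin, 3 of 8 for H373R against FL, and 10 of 15 for both FL and H373R against EV untreated cells. DESeq2 lost 9 calls, limma on log2(TPM + 1) and on log2(TPM + 0.1) 6 each, limma without a TPM filter 18, and RLE or upper quartile scaling 1 each. At an adjusted p under 0.01, 25 calls were lost, and the counts were 7 for H373R against EV auxin and 4 for H373R against FL, beside 11.2% and 2.66% of all genes. With the GC trend removed, 16 members were called with auxin in EV cells, beside 29.7% of all genes. There, Meioc in H373R auxin against EV untreated cells, not called at -0.07, was 0.11 (edgeR adjusted p = 0.0390), whereas without EV untreated replicate 1 it was -0.21 (0.00218). Leaving out 1 library gave 7 to 13 members for EV auxin against EV untreated, 10 to 22 for FL and 7 to 18 for H373R against EV auxin, 4 to 11 for H373R against FL, and 14 to 22 and 11 to 18 for FL and H373R against EV untreated cells. The shares of all genes called over the same libraries left out were, in that order, 9.32% to 33.3%, 11.2% to 35.5%, 8.85% to 33.0%, 3.12% to 14.2%, 28.9% to 47.2% and 36.8% to 54.7%. With 1 EV auxin library left, the fit takes the spread from the other groups and assumes that the lone library varies like them. The libraries shared only a replicate number: deviations from group means correlated at r = -0.087 to 0.282 in 15 same-numbered pairs and at -0.197 to 0.134 in the others. With a replicate block the counts were 9, 16, 14, 9, 15 and 15 in the order above. The shares of all genes called were 19.5%, 24.2%, 21.5%, 5.74%, 37.4% and 45.3%. The calls lost with the block were Mael in FL and Syce1 in H373R against EV auxin. In promoter windows cut to the 250 bases before the start, the E-box shares were 45.5% of member windows and 6.02% of all. The cause of these changes was not tested.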
